A study of Mus musculus with 8 samples.

Results

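The cytosines described here were listed for 5-carboxylcytosine (5caC) and already read as unconverted in a high share of reads before 5caC was protected, in a stretch of genome where no 5-formylcytosine (5fC) was listed. They were chosen from the deposited list of 4806 5caC cytosines by 3 criteria. At least 40% of the reads had to be unconverted with bisulfite alone, both libraries together had to hold at most 100 reads, and no listed 5fC cytosine could lie within 1000 bp on either strand. Of the 4806 cytosines, 745 (15.5%) met the first criterion, 42 of these had over 100 reads, and 238 of the remaining 703 had a 5fC cytosine near. This left 465 cytosines, 9.68% of the 5caC list.

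The DNA came from mouse embryonic stem cells of strain C57BL/6-ICR, genotype Tdg -/-, grown without feeders on gelatin in serum and leukaemia inhibitory factor. It was sonicated to 400 bp on average, immunoprecipitated with antiserum against 5caC and split between 2 treatments, each with 1 library. One library was treated with bisulfite alone ("bisulfite-only"). In the other, 5caC was first coupled to an amine through a carbodiimide so that bisulfite no longer converted it ("protected"). The 5fC positions come from the corresponding anti-5fC libraries of the same genotype. Libraries of Tdg fl/fl cells, in which the gene is floxed, were not analysed here. The labels do not say how many knockout clones or cultures were used. With 1 library per group, a test at a cytosine compares the reads of 2 libraries, and there is no spread between samples.

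TET enzymes oxidise 5-methylcytosine (5mC) stepwise to 5-hydroxymethylcytosine (5hmC), 5fC and 5caC. The glycosylase TDG removes 5fC and 5caC, and base excision repair then restores cytosine, so both bases build up when TDG is missing. Bisulfite leaves 5mC and 5hmC reading as C and turns cytosine, 5fC and 5caC into bases read as T. The bisulfite-only level is therefore the usual readout of 5mC and 5hmC together. Copies that bisulfite failed to convert would read the same way, which was not tested. The further rise with protection, in percentage points, is the measured 5caC level. It refers to DNA captured by the antibody and not to all copies in the cells.

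Over the 465 cytosines, the median unconverted share was 54.5% with bisulfite alone and 95.2% with protection. These medians were taken separately, so their gap is not the median 5caC level. The quartiles were 45.5 and 66.7% before protection and 88.2 and 100% after it. The median 5caC level was 36.4 points (95% order-statistic interval over cytosines 35.7 to 38.1), with quartiles of 29.7 and 43.8 and a range from 14.0 to 60. Protection left no converted read at 192 cytosines (41.3%, exact 95% interval 36.8 to 45.9) and a single one at 112 (24.1%). Summed over the 465 cytosines, the unconverted reads were 4046 of 6919 (58.5%) with bisulfite alone and 8900 of 9636 (92.4%) with protection. These are values of the reads that selected the cytosines, so they are a description and carry no test over the set. Intervals cover counting error or spread over cytosines only, since reads without molecular identifiers may be copies of 1 molecule and neighbouring cytosines share reads.

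**Figure D1:**
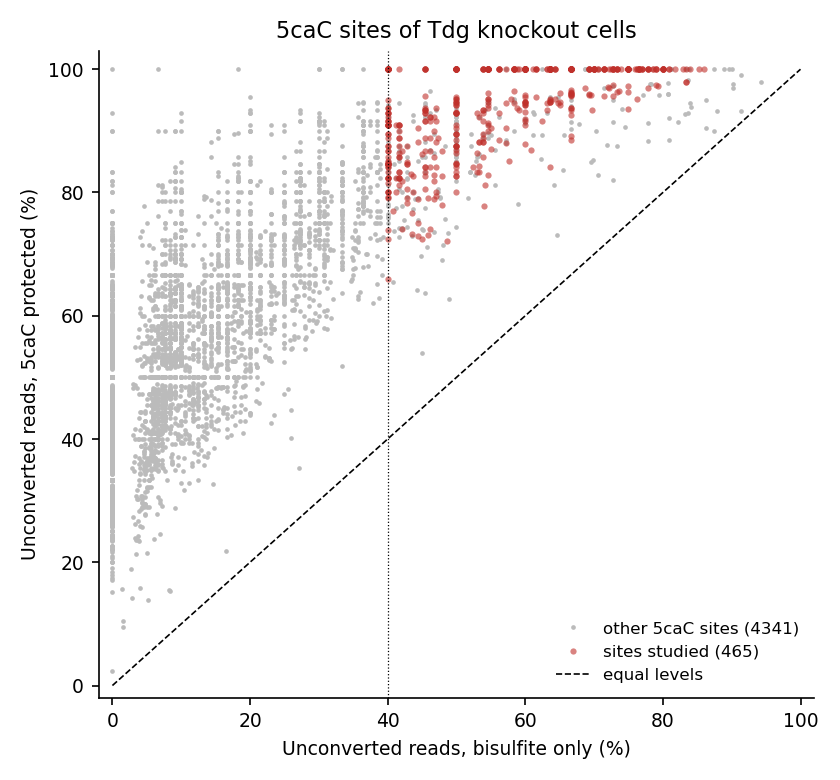
Share of unconverted reads at each of the 4806 listed 5caC cytosines with bisulfite alone (horizontal axis, percent) and with 5caC protection (vertical axis, percent). The 465 cytosines studied are in red, all other listed cytosines in grey; the dashed line marks equal levels and the dotted line the minimum of 40%. The red points lie between 66.0 and 100% with protection, many of them on the 100% line.

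The highest 5caC level that the choice allows is 60 points, from 40% to 100%, and 12 cytosines stood there. The 10 named among them by smallest p lay on 8 chromosomes. Position 36409411 of chromosome 5, plus strand, had 20 unconverted reads of 20 with protection (exact 95% interval 83.2 to 100%) but 4 of 10 with bisulfite alone (12.2 to 73.8%). By Fisher's exact test, two-sided, the unadjusted p was 0.000354. On the plus strand of chromosome 14, position 55372901 gave 19 of 19 and 4 of 10 reads. Position 106301611 of chromosome 2, on the same strand, rose from 6 of 15 to 12 of 12. All 3 cytosines therefore read as C in every protected read, while most bisulfite-only reads were T. The intervals of the bisulfite-only shares are wide, because 10 to 15 reads stand behind each. The other 7 of the 10 had between 11 and 15 protected reads, all unconverted, against 4 of 10 without protection.

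Ranking by p brought out some deeper cytosines as well. Fisher's exact test gave its smallest p among the 465, 0.000254, to position 74163678 of chromosome 8, plus strand. There the unconverted reads went from 21 of 29 (72.4%, 52.8 to 87.3) to 46 of 46 (92.3 to 100%), a level of 27.6 points. Here most captured copies were already unconverted before protection. Position 132578102 of chromosome 3, plus strand, went from 13 of 30 (43.3%) to 34 of 41 (82.9%), where the p by Fisher's exact test was 0.000817. It was one of 3 among the 10 with the smallest p that kept converted reads after protection. The others were position 30400958 of chromosome 2, plus strand, with 20 of 22 and 7 of 17 unconverted reads, and position 110754972 of chromosome 9, plus strand, with 26 of 30 and 8 of 19. At position 152051490 of chromosome 5, plus strand, the share rose from 12 of 20 (60%) to 22 of 22. On the minus strand of chromosome 2, position 30945420 gave 15 of 15 and 5 of 12. Between them, the 10 cytosines of smallest p had 25 to 75 reads and levels from 27.6 to 60 points, and 4 were also among the 10 highest levels.

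At the other end stood cytosines where little was left to convert. The highest bisulfite-only share was at position 46789533 of chromosome 4, minus strand, with 37 of 43 reads (86.0%) against 38 of 38 with protection, a level of 14.0 points. Position 34358259 of chromosome 17, minus strand, followed with 23 of 27 reads (85.2%) and 43 of 43 protected. Position 120711183 of chromosome 5, minus strand, had 26 of 31 (83.9%) and 40 of 40. In each of these 3, the last converted reads disappeared with protection, and depths of 70 to 81 reads made so small a rise listable.

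Values at the edges of the choice ran on without a gap. At exactly 40% stood 61 cytosines (13.1%), and the closest cytosines left out had 7 of 18 unconverted bisulfite-only reads (38.9%), such as position 19788791 of chromosome 7, plus strand, with 22 of 26 protected. The deepest cytosine kept, position 52556912 of chromosome 11, minus strand, had 98 reads, with 49 of 50 protected and 40 of 48 bisulfite-only reads unconverted. The first one left out for depth, position 66891873 of chromosome 1, plus strand, had 101 reads, with 47 of 49 and 42 of 52. It lies 75 bp from position 66891948, which had 94 reads and was kept. The shortest distance to a 5fC cytosine among those kept was 1018 bp, and the longest among those left out was 995 bp.

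Most of these levels stood at the entry limit of the list. Listed cytosines had an unadjusted p below 0.05, which the authors' deposited p-values show and which all 465 meet, as do 100% of the 4806. Given its bisulfite-only reads and its protected depth, each cytosine has a lowest number of unconverted protected reads that reaches p below 0.05. Exactly that number was present at 348 of the 465 (74.8%, exact interval 70.6 to 78.7), and at 155 (33.3%) it was the whole protected depth, so that a single converted read would have kept the cytosine off the list. The median of the lowest listable level was 35.6 points, beside the observed median of 36.4. A p below 0.01 by Fisher's exact test was reached by 73 cytosines (15.7%, exact interval 12.5 to 19.3), against 36.1% of the whole 5caC list. With Benjamini-Hochberg adjustment over the list, 5 of the 465 had a value below 0.01 against 9.97% of the list, and with a mid-p version of the test 143 did, against 48.5%. The choice used these same reads, so nothing is read from these shares, and how many cytosines the authors tested before listing is not known here.

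**Figure D2:**
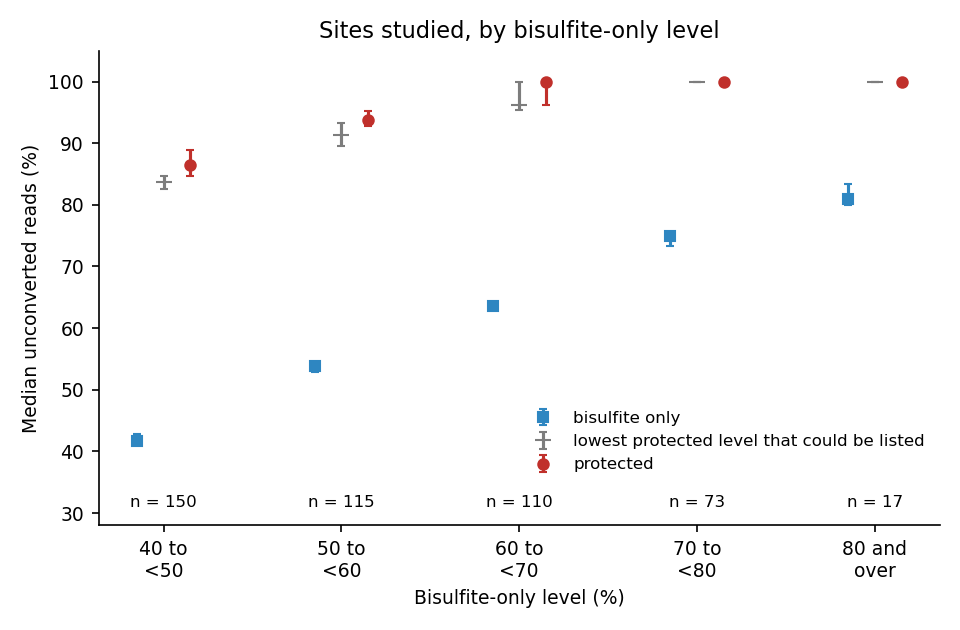
Medians over the 465 cytosines in 5 bins of bisulfite-only level (horizontal axis, percent), with 95% order-statistic intervals over cytosines. Squares are the bisulfite-only share, horizontal marks the lowest protected share that could be listed, and circles the protected share, all in percent of reads; protected medians rise from 86.5 to 100 and stay within a few points of the lowest listable share.

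The cytosines differed among themselves along their bisulfite-only level. The 150 cytosines at 40 to under 50% had a median protected share of 86.5% (95% order-statistic interval 84.6 to 88.9) and a median level of 44.6 points. At 50 to under 60% (115 cytosines) these were 93.8% and 40.2 points, and at 60 to under 70% (110) they were 100% and 33.3 points. The 73 cytosines at 70 to under 80% had a median level of 25 points, and the 17 at 80% or more had 19.0. No converted read was left with protection at 17 of the 150 (11.3%), 39 of the 115 (33.9%), 62 of the 110 (56.4%), 59 of the 73 (80.8%) and 15 of the 17 (88.2%). The level thus fell as the bisulfite-only share rose, with the room left above it. The lowest listable protected share climbed alongside, from a median of 83.8% in the first bin to 100% in the last 2.

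A further description is the share of the bisulfite-convertible copies, which hold cytosine, 5fC and 5caC, that became unconverted with protection. This share, the level divided by the converted bisulfite-only share, had a median of 87.8% over the 465 cytosines. At the lowest listable number of reads the same cytosines would have had a median of 84.8%, so most of the value is set by the choice and the listing rule. Among the cytosines chosen with the same limits on depth and 5fC, the 1756 with a bisulfite-only level above 0 and under 40% had 53.6%, with 45.5% at the listing limit. The 1069 with no unconverted bisulfite-only read had 44.4%, with 35% at the limit. No difference between the classes is read from these values. At 39.4% of the 1756 and 25.4% of the 1069, the protected reads stood exactly at the lowest listable number, against 74.8% of the 465.

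**Figure D3:**
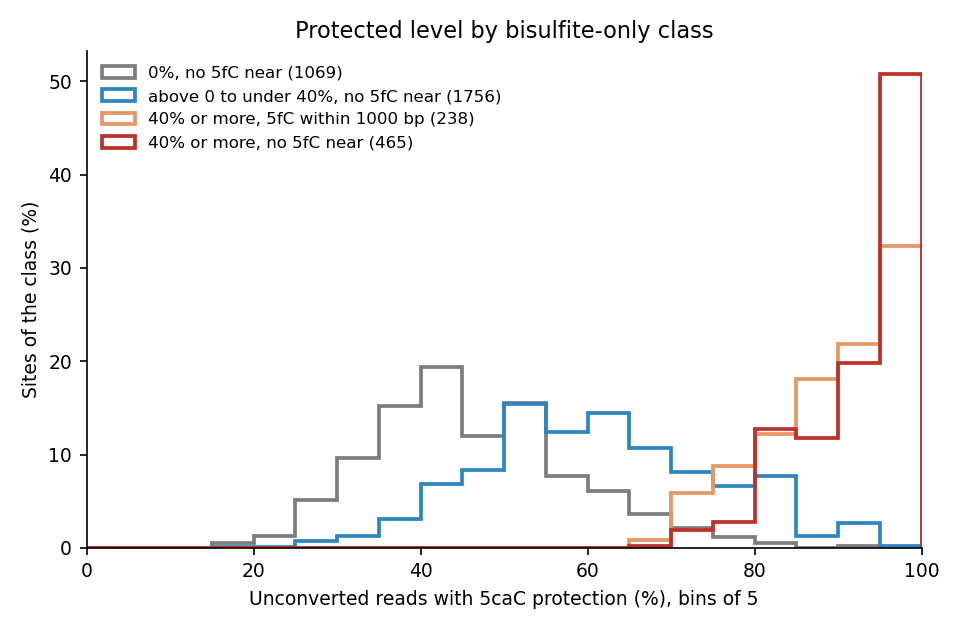
Distribution of the protected unconverted share (horizontal axis, percent of reads in bins of 5) in 4 classes of 5caC cytosines with at most 100 reads; the vertical axis is the percentage of the cytosines of that class. Medians were 44.4% for the class with no unconverted bisulfite-only read, 60% for the intermediate class, 91.5% for the class at 40% or more with 5fC within 1000 bp, and 95.2% for the 465 studied.

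Levels were lower at deeper cytosines. Median depths were 19 protected reads and 13 bisulfite-only reads, and 399 of the 465 (85.8%) had fewer than 20 in one library or both. The 97 cytosines with 20 to 25 reads in all had a median level of 45.5 points, and 64 of them (66.0%) kept no converted read. Those with 26 to 35 reads (190) had 39.1 points, those with 36 to 50 (120) had 31.1, and those with 51 to 100 (58) had 24.2. In the deepest of these bins 16 of 58 cytosines (27.6%, exact interval 16.7 to 40.9) were fully unconverted with protection, and the median bisulfite-only share was 66.7%, against 50% in the shallowest bin. The median of the lowest listable level fell across the same bins, from 45.5 through 37.5 and 30.2 to 22.0 points. Depth, bisulfite-only share and listing limit changed together, and their parts in the level were not tested. The lowest level that could be listed had quartiles of 29.1 and 41.2 points over the 465, so smaller levels were not detectable at most of these cytosines.

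Cytosines with the same bisulfite-only criterion and depth limit but with a 5fC cytosine within 1000 bp were the closest comparison. These 238 had a median bisulfite-only share of 50% and a median protected share of 91.5% (89.4 to 92.7), and their median level, 36.1 points (34.7 to 36.9), was near the 36.4 of the 465. No converted read was left at 59 of them (24.8%, exact interval 19.4 to 30.8), against 41.3% (36.8 to 45.9) of the cytosines away from 5fC. They were somewhat deeper, with a median of 35 reads against 31. Within 36 to 50 reads the shares were 7 of 66 (10.6%, 4.37 to 20.6) and 37 of 120 (30.8%, 22.7 to 39.9). Within 20 to 25 reads they were 18 of 26 (69.2%) and 64 of 97 (66.0%), and within 26 to 35 reads 29 of 95 (30.5%) and 75 of 190 (39.5%). Within 51 to 100 reads they were 5 of 51 (9.80%, 3.26 to 21.4) and 16 of 58 (27.6%, 16.7 to 40.9). Only at 36 to 50 reads did the intervals not overlap. In that bin the bisulfite-only shares also differed, with a median of 50% with 5fC near and 62.8% away from it. The whole protected depth was needed for listing at 46 of the 238 (19.3%) and 155 of the 465 (33.3%), and within 36 to 50 reads at 9.09 and 23.3%. The parts of this limit and of the bisulfite-only share in the difference were not tested. Cytosines of the same 2 libraries are not replicates, so no test is given.

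The share of cytosines with 5fC near was highest at intermediate bisulfite-only levels, from 20 to 50%. The interval at 50 to under 60% overlaps those of these levels. Among all 5caC cytosines with at most 100 reads, a listed 5fC cytosine lay within 1000 bp of 282 of the 1351 with no unconverted bisulfite-only read (20.9%, exact interval 18.7 to 23.1). The share was 29.1% above 0 and under 10% and 31.4% (28.4 to 34.6) at 10 to under 20%. At 20 to under 30% it was 42.3% (38.0 to 46.6), and at 30 to under 40% it was 41.1% (35.7 to 46.6). It was 40% (33.9 to 46.4) at 40 to under 50% and 34.3% (27.3 to 41.8) at 50 to under 60%. At 60 to under 70% it was 29.0% (22.0 to 36.9), and at 70% or more it was 26.8% (19.2 to 35.6). Taken whole, the cytosines above 0 and under 40% and those at 40% or more had the same share, 33.9% each (32.1 to 35.8 and 30.4 to 37.5). The exclusion of 5fC therefore removed a larger share of the cytosines just above 40% than of those at 70% or more, with overlapping intervals. The very same cytosine was on the 5fC list at 56 of the 1351 with no unconverted bisulfite-only read (4.15%, 3.15 to 5.35). It was at 8.20% (7.19 to 9.31) of those above 0 and under 40%, and at 3.27% (2.09 to 4.87) of those at 40% or more. The last interval overlaps that of the class at 0. Of the 123 at 70% or more it was 0, where up to 2.44% would be possible. How far the 5fC listing limit moves with the bisulfite-only level was not tested. Depth was not matched in these shares. Cytosines with 5fC near had a median of 39 reads under 40% and 35 at 40% or more. Those without 5fC near had 31 at 0, 32 above 0 and under 40%, and 31 at 40% or more. The part of depth was not tested. Reads of the 5fC libraries at unlisted cytosines were not analysed here.

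The distance to 5fC is bounded by the choice itself, which removed every cytosine with 5fC within 1000 bp, and is given as a description. The median distance to the nearest listed 5fC cytosine was 63008 bp, with quartiles of 16422 and 190847, and 176 (37.8%) had none within 100000 bp. Without that exclusion the median over 703 cytosines was 15762 bp. In the 2 other classes without 5fC near, the medians were 62826 bp (57822 to 70881) for the intermediate class and 71389 bp (63479 to 82369) for the class at 0, and the interval for the 465 (51272 to 79353) overlaps both. Within 5000 bp there was a 5fC cytosine for 56 of the 465 (12.0%, 9.23 to 15.4), against 8.77% (7.49 to 10.2) of the intermediate class and 8.51% (6.91 to 10.3) of the class at 0.

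Most of these cytosines stood alone. Another listed 5caC cytosine lay within 200 bp of 96 of the 465 (20.6%, exact interval 17.1 to 24.6), compared with 577 of the 1756 of the intermediate class (32.9%, 30.7 to 35.1) and 308 of the 1069 at 0 (28.8%, 26.1 to 31.6). With 5fC near, 95 of the 238 cytosines at 40% or more (39.9%) had such a neighbour. Among the 465 the share was 25.3% (18.6 to 33.1) at 40 to under 50% and 12.3% (5.80 to 22.1) at 70 to under 80%. It also moved with depth, from 14.4% (8.12 to 23.0) at 20 to 25 reads to 34.5% (22.5 to 48.1) at 51 to 100 reads. The part of depth and of the listing limit in these shares was not tested. Of the 167 cytosines with 15 or more reads per library, 27.5% had a neighbour, and with p below 0.01 it was 32.9% of 73, over 1.5 times the 20.6% of all 465.

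Most neighbours at 40% or more were chosen cytosines themselves, picked by the same minimum, with their pairs entering from both sides. The shares are a description, and nothing is read from their change with distance. The 96 cytosines had 124 neighbour relations within 200 bp, to 116 distinct cytosines, with a pair of chosen cytosines counted once from each side. The neighbour's median bisulfite-only share was 20% (16.7 to 30.8), and it was 40% or more in 50 of the 124 (40.3%, exact interval 31.6 to 49.5). Of these 50, 46 were chosen cytosines themselves, so their pairs entered the share from both sides. The 15.5% of the whole 5caC list at 40% or more is therefore no like-for-like reference. A share over distinct pairs was not computed. Neighbours of the intermediate class reached 40% in 57 of 802 relations (7.11%, 5.43 to 9.11), and those of the class at 0 in 18 of 413 (4.36%, 2.60 to 6.80). For the closest comparison, at 40% or more with 5fC near, it was 42 of 162 (25.9%, 19.4 to 33.4). Within 20 bp, 26 of 39 neighbours of the chosen cytosines (66.7%, 49.8 to 80.9) were at 40% or more. All 26 were chosen cytosines themselves, and each such pair was counted from both sides. At 21 to 100 bp the number at 40% or more was 15 of 51 (29.4%, 17.5 to 43.8), and beyond 100 bp it was 9 of 34 (26.5%, 12.9 to 44.4). Chosen cytosines made up 12 of these 15 and 8 of these 9. With 5fC near, the shares were 12 of 37 (32.4%, 18.0 to 49.8), 18 of 67 (26.9%, 16.8 to 39.1) and 12 of 58 (20.7%, 11.2 to 33.4). Cytosines within 20 bp are read largely by the same molecules, and all 39 such relations of the chosen cytosines were on 1 strand. They are therefore not separate measurements. Relations that share cytosines also make the intervals too narrow. Over all distances, 104 of the 124 relations (83.9%) were on the same strand, as were 83.5% for the intermediate class and 83.8% for the class at 0.

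**Figure D4:**
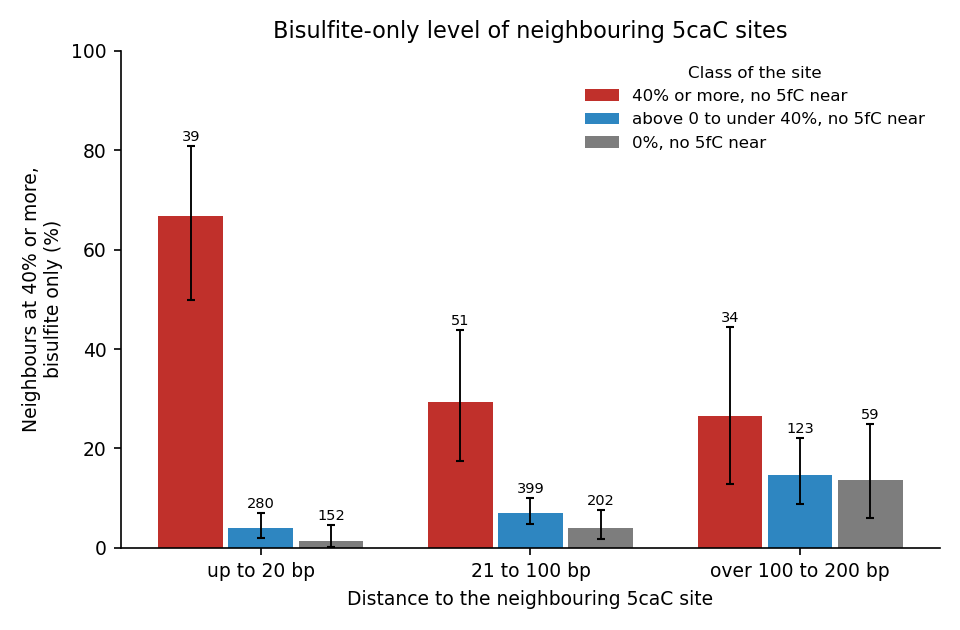
Percentage of neighbouring 5caC cytosines whose own bisulfite-only share was 40% or more (vertical axis), by distance to the neighbour (horizontal axis) and by class of the cytosine (red, the 465 studied; blue, above 0 and under 40%; grey, 0%). Bars carry exact 95% binomial intervals and the number of relations above them. The red bars fall from 66.7% within 20 bp to 26.5% beyond 100 bp. Behind the first red bar, all 26 neighbours at 40% or more were chosen cytosines themselves. Pairs within a class count from both sides, and the class at 40% or more with 5fC within 1000 bp is not drawn.

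Chaining cytosines at most 200 bp apart placed the 96 in 74 groups of 174 listed 5caC cytosines. In 15 groups every cytosine belonged to the 465, in 55 at least one was under 40%, and in 16 at least one had no unconverted bisulfite-only read. The only group with 3 or more of the 465 lay on chromosome 11, from 53350727 to 53350763, with all 3 of its cytosines on the plus strand. Their bisulfite-only shares were 16 of 21, 14 of 21 and 13 of 18 reads, and their protected shares 29 of 29, 28 of 29 and 31 of 32. High levels before and after protection were thus shared by 3 cytosines within 37 bp. A group on chromosome 12, from 103896994 to 103897213, minus strand, was high as well but kept more converted reads. Its 3 cytosines went from 36 of 55, 21 of 33 and 20 of 37 to 41 of 49, 53 of 63 and 42 of 54, and the first of them missed the depth limit with 104 reads. Other groups were mixed. On chromosome 17, from 25755516 to 25755846, a plus-strand cytosine rose from 0 of 15 to 10 of 16 reads, and one 13 bp on from 1 of 15 to 8 of 18. The 2 chosen cytosines of that group, 199 and 330 bp from its start, went from 4 of 10 to 11 of 13 and from 4 of 10 to 10 of 11. On chromosome 8, from 98388915 to 98388982, the bisulfite-only shares of 4 cytosines ran from 8.33 to 60%, and their protected shares from 52.5 to 94.7%.

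No facing cytosine on the other strand was listed beside these cytosines. The position 1 bp away on the other strand, which is the partner if the cytosine lies in a CpG, was on the 5caC list at 0 of the 465. A count of 0 there leaves room for up to 0.645%. Over the list as a whole, 82 of 4806 cytosines formed 41 such pairs, with a median bisulfite-only share of 7.14%, and the highest was 42.1%. In the intermediate class 25 of 1756 (1.42%, exact interval 0.923 to 2.09) had a listed partner, and in the class at 0 it was 13 of 1069 (1.22%, 0.649 to 2.07). With 5fC near, 3 of the 238 cytosines at 40% or more did. Reads at unlisted partners were not analysed here, so these partners are not shown to lack 5caC. Over strands, the 465 split evenly, with 236 on the plus strand (50.8%, 46.1 to 55.4).

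Along the genome they were spread widely. They lay on 19 autosomes, X and Y, in 359 different windows of 1 Mb, and no such window held more than 4, whereas the fullest held 22 listed 5caC cytosines. As a share of listed 5caC cytosines they ranged among autosomes from 6.69% on chromosome 10 (18 of 269, exact interval 4.01 to 10.4) to 14.5% on chromosome 5 (57 of 392, 11.2 to 18.4). Chromosomes 3 (30 of 215, 14.0%) and 13 (26 of 189, 13.8%) came next. Chromosome 5 stood above the 9.68% of the whole list by its interval alone, with 19 autosomes looked at and neighbouring cytosines not independent. Its share of cytosines at 40% or more before the other criteria was 20.9%, against 15.5% over the list. X held 3 of its 24 listed cytosines, at 22 to 24 reads each, and they went from 6 of 12, 6 of 11 and 7 of 12 to 11 of 11, 11 of 11 and 12 of 12 unconverted reads. The cytosine on Y went from 8 of 17 to 15 of 16.

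**Figure D5:**
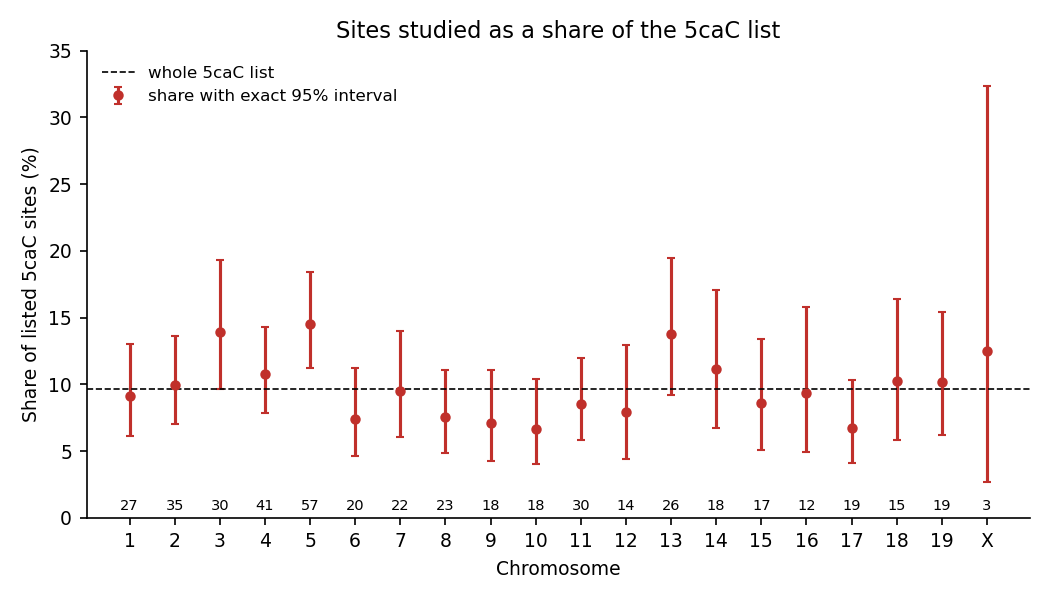
The 465 cytosines as a percentage of the listed 5caC cytosines of each chromosome (vertical axis) with exact 95% binomial intervals; numbers along the base are the cytosines on each chromosome, and the dashed line is the 9.68% of the whole list. Chromosome 5 is highest among the autosomes at 14.5%, and X has a wide interval because it holds 24 listed cytosines; Y, with a single listed cytosine, is not drawn.

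Positions are those of the files on the mm9 build. No mm9 sequence or annotation was used here, so genes, exons, promoters and the bases around these cytosines are not given.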

How the data were processed

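Immunoprecipitated DNA was bisulfite-treated with or without protection of 5caC or 5fC, per the labels' protocols. Bismark, HOMER and the mm9 build are named, without roles, per the submitters' processing notes. The authors deposited, per mark, a list of knockout cytosines with 4 raw read counts (C and T reads per library, per the file headers). The lists also hold a score deposited by the authors, a difference, and an unadjusted p-value. That score is the unconverted fraction with protection less that without, within 0.0001, and the deposited p-value equals a two-sided Fisher's exact test within 1%, at all 4806 and 7213 cytosines. Every listed cytosine had at least 10 reads per library and p below 0.05. For duplicate removal the sources used here give nothing.

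Columns were mapped to libraries by file mark, genotype and sample title. Levels, distances and p-values were recomputed from the counts with Python 3.11.15, scipy 1.17.1, numpy 2.4.6, pandas 2.3.3 and matplotlib 3.10.9, after tests on simulated data. Medians carry exact order-statistic 95% intervals and shares exact (Clopper-Pearson) 95% intervals. Counts of 0 carry an upper limit of 3 counts. Named cytosines are examples from the 10 highest levels, the 10 smallest p, the highest bisulfite-only shares, 5 groups of chosen cytosines (1 with 3, then 4 of 20 tied at 2, taken by number of listed cytosines and then chromosome label), the threshold edges, and the sex chromosomes (the last chosen after values were seen). The cytosines, classes and bins were chosen with earlier results of these data known.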

Additional observations from a re-analysis of the deposited data

How the results depend on the processing

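The number of cytosines chosen was 167 with at least 15 reads in each library, 703 without the exclusion by 5fC and 73 with p below 0.01. The median 5caC level was 29.2 points with at least 15 reads, 33.3 with a bisulfite-only minimum of 0.50 and 44.6 with p below 0.01. The share with another 5caC cytosine within 200 bp was 27.5% with at least 15 reads, 27.2% without the exclusion by 5fC and 32.9% with p below 0.01. It was 15.9% for a window of 100 bp and 28.8% for 1000 bp. With at least 15 reads, 31 of 167 had a Fisher's exact p below 0.01, and with the minimum of 0.50 it was 42 of 315. Without the exclusion by 5fC it was 115 of 703. Of the 465, 5 were below 0.01 after Benjamini-Hochberg adjustment and 143 by mid-p. Over the whole 5caC list the shares were 36.1% unadjusted, 9.97% after adjustment and 48.5% by mid-p. Settings that keep fewer or more cytosines change counts by construction; the cause of the other shifts was not tested. Of 65 alternative values, 35 stayed within the interval of the reported value, or within 1.5 times it for counts, and 30 moved. The median bisulfite-only share of neighbours stayed within its interval in all 7 alternatives, from 18.2 to 30.4%. The protected and bisulfite-only libraries came from DNA split between them, and each level compares them within a cytosine. No analysis over replicate pairs was possible, because each group has 1 library and the labels give no replicate numbers.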

Other observations

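Among the 73 cytosines of the 465 with a Fisher's exact p below 0.01, 49 lay on the plus strand (67.1%, exact 95% interval 55.1 to 77.7). Among the other 392 it was 187 (47.7%, 42.7 to 52.8), and among the 1737 cytosines of the whole 5caC list with p below 0.01 it was 914 (52.6%, 50.2 to 55.0). The 73 were set apart by p on the same reads that chose the 465, and 32.9% of them had another 5caC cytosine within 200 bp. Neighbouring cytosines share reads, so the interval may be too narrow. This split over strands was looked at after the values were seen, and whether it departs from an even split was not tested.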
